A study of Mus musculus with 4 samples.

Results

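Fatty acid elongases and desaturases were followed through the mammary glands of 4 groups of mice. They were taken as all probe sets whose gene symbol was Elovl1, Elovl2, Elovl3, Elovl5, Elovl6, Scd1, Scd2, Fads1 or Fads2, which gave 9 genes read by 17 probe sets, out of 12394 named genes and 22690 probe sets on the array. The groups were MMTV-PPARd mice on GW501516, MMTV-PPARd mice on standard chow, wild-type mice on GW501516 and wild-type mice on standard chow. All were nulliparous females on the FVB background, and the wild-type mice were age-matched littermates; an age was not stated. The transgene is driven by the promoter of mouse mammary tumour virus, which is active in mammary epithelium and also in some other secretory epithelia, and it encodes PPARδ, a nuclear receptor activated by fatty acids. GW501516, a synthetic PPARδ agonist, was given in the chow for 1 week, at a content that the labels state as 0.005% in the protocol and as 0.001% in a treatment tag. Each group was 1 array hybridised with RNA pooled from 5 mice, so no difference has a replicate check and no test was possible.

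Fatty acid synthase releases mainly palmitate, and elongases and desaturases turn palmitate and dietary fatty acids into the longer and less saturated chains of membranes, stored triglyceride and milk fat. An elongase of the Elovl family carries out the condensing step that adds a malonyl-CoA unit to an acyl-CoA in the endoplasmic reticulum, and other enzymes complete the cycle. The desaturases insert a double bond with electrons passed on by cytochrome b5: stearoyl-CoA desaturases (Scd1, Scd2) make oleate and palmitoleate, and the front-end desaturases Fads1 and Fads2 act with Elovl5 and Elovl2 on the essential fatty acids to make arachidonic and docosahexaenoic acid. In the mammary gland these genes are active both in the adipocytes of the fat pad and in secretory epithelium.

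The transgene was read as labelled. Ppard had an intensity of 4223.5 in MMTV-PPARd mice on GW501516 and 1943 in MMTV-PPARd mice on chow, against 1.5 in wild type on GW501516 and 2.1 in wild type on chow. Intensities are on the linear scale of the deposited values. Values under 20.5, the 25th percentile of all values, were treated as unmeasured and set to that floor. The MMTV-PPARd chow array stood apart in 2 controls. Gapdh read 3572.5 there, against 8730 to 12274.2 on the other 3 arrays. The 3 probe sets of the BioB control transcript read 19.3 to 34.2, against 280.5 to 519. The highest intensity of any probe set was also lower there, at 14308.6, against 19396.4 to 21519.6. GW501516 in MMTV-PPARd mice, the transgene on chow and the difference between GW501516 effects use this array, and the part of its departure in their values was not tested. Epithelial and adipocyte markers of the gland were present on all arrays, with Krt18, a luminal keratin, at 5619.5 to 6789.7 and Adipoq (adiponectin) at 9983.6 to 15056.5. In bulk tissue, fewer cells of a type and less RNA per cell cannot be told apart.

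Sequence upstream of the gene start was at hand for 5 of the 9 genes (Elovl1, Elovl2, Elovl5, Elovl6 and Fads2) in RefSeq's tables for GRCm38.p6. The 250 bases before the start are shown for Elovl1 and Elovl5, the pair of members with the most alike values over the 4 arrays, and for Elovl6 and Fads2, members with 2-fold differences. They lie at chr4:118429451-118429700 on the plus strand for Elovl1, which has a second start not shown, at chr9:77917115-77917364 on the plus strand for Elovl5, at chr3:129532136-129532385 on the plus strand for Elovl6 and at chr19:10101504-10101753 on the minus strand for Fads2. Each is written on the gene's strand, and capitals mark matches to 6 motifs searched on both strands.
Elovl1: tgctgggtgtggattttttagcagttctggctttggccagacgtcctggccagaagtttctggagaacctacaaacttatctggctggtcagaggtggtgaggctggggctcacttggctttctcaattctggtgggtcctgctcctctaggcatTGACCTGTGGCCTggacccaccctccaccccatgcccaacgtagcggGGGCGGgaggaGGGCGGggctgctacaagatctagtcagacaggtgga
Elovl5: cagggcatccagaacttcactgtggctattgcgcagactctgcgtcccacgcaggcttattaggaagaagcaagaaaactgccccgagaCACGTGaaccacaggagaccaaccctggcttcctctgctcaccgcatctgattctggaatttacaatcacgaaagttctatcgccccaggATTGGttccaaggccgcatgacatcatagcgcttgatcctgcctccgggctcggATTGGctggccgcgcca
Elovl6: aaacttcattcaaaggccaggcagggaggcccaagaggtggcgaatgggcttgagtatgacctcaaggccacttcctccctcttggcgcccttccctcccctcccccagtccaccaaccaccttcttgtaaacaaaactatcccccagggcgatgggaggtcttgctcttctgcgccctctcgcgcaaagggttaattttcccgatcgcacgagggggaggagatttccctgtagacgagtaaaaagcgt
Fads2: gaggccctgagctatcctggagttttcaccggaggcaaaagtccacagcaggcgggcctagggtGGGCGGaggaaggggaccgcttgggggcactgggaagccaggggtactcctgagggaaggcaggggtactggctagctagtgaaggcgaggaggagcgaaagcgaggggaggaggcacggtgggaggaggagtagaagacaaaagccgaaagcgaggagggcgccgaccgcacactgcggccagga
The motifs were a PPAR response element (AGGNCANAGGNCA), a sterol regulatory element (TCACNCCAC), an LXR response element (AGGNCANNNNAGGNCA), the CCAAT box, the GC box GGGCGG and the E-box CACGTG. The 5 genes had 7 such windows, and the PPAR element was matched in 1, in Elovl1, beginning 95 bases before the start shown. It was held by 0.338% of 32851 such windows over all genes. Elovl1 also held 2 GC boxes in the window shown. The window of its other start had no PPAR element, but 5 GC boxes and 1 CCAAT box. Of the 7 windows, 4 held GC boxes and 2 held CCAAT boxes. Elovl5 held 2 CCAAT boxes, beginning 71 and 17 bases before the start, and an E-box, and Fads2 held 1 GC box. CCAAT boxes were found in 33.8% of all windows, GC boxes in 32.7% and the E-box in 6.02%. Elovl6 held no match to these letters in this window. The sterol element occurred in 1.05% of all windows and the LXR element in 0.213%, and neither occurred in the windows of the 5 genes. A match is a description of the letters and not a bound site.

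Elovl3 had the widest range of the measured members over the 4 arrays. In mice it elongates saturated and monounsaturated fatty acids and is best known from brown fat and sebaceous glands. Its only probe set, 1420722_at, read 89.2 in MMTV-PPARd on GW501516 and 839 in MMTV-PPARd on chow, against 359.7 in wild type on GW501516 and 95.3 in wild type on chow. Either the transgene or the agonist alone thus went with a higher intensity than in untreated wild type, and both together did not. GW501516 went with a 3.77-fold higher intensity in wild type and a 9.41-fold lower one in MMTV-PPARd mice. The transgene went with an 8.80-fold higher intensity on chow and a 4.03-fold lower one on GW501516. With both, Elovl3 was 1.07-fold lower than in wild type on chow, a log2 difference of -0.10. That is less than the 0.39 by which probe sets of 1 gene typically differed in that comparison (SD over 2536 genes). This SD holds no scatter between arrays, and it was 0.35 to 0.45 in the other comparisons of 2 arrays. All 4 values were above the floor. The highest, 839, lies on the MMTV-PPARd chow array that stood apart, and the differences that do not use it are the 3.77-fold, 4.03-fold and 1.07-fold ones.

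Elovl6, which elongates palmitate to stearate and is a classical target of the lipogenic factor SREBP-1, had the same direction in every comparison as Elovl3. Probe set 1417404_at read 1779.6 in MMTV-PPARd on GW501516 and 2699.3 in MMTV-PPARd on chow, against 4315.1 in wild type on GW501516 and 1877 in wild type on chow. The second probe set, 1417403_at, gave 708.2 and 1178.6 in MMTV-PPARd on GW501516 and on chow, against 2154.7 and 760.6 in wild type on GW501516 and on chow. Both probe sets put the 4 arrays in the same order, with wild type on GW501516 highest and MMTV-PPARd on GW501516 lowest. The agonist went with a 2.30-fold higher intensity in wild type (2.83-fold by the second probe set) and with a 1.52-fold lower one in MMTV-PPARd mice (1.66-fold). On GW501516 the transgene went with a 2.42-fold lower intensity (3.04-fold by the second probe set), and on chow with a 1.44-fold higher one (1.55-fold). MMTV-PPARd on GW501516 and wild type on chow, the 2 lowest arrays, differed by 1.05-fold.

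Elovl1, which makes very long saturated and monounsaturated chains used in sphingolipids, had its highest intensity in MMTV-PPARd on GW501516 by all 3 of its probe sets. The brightest, 1456530_x_at, read 3123.8 in MMTV-PPARd on GW501516 and 2154.9 in MMTV-PPARd on chow, against 1588.7 in wild type on GW501516 and 1850.6 in wild type on chow. The transgene thus went with a 1.97-fold higher intensity on GW501516 (2.15-fold and 1.81-fold by the other probe sets). On chow the probe sets split. The 2 whose identifiers end in _x_at, a mark of possible cross-hybridisation, were 1.16-fold and 1.19-fold higher in MMTV-PPARd mice, while 1425676_a_at was 1.42-fold lower, at 505.9 in MMTV-PPARd and 719.8 in wild type. GW501516 in MMTV-PPARd mice went with a 1.45-fold higher intensity by the brightest probe set and 2.33-fold by 1425676_a_at.

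Elovl5 elongates the polyunsaturated chains that Fads2 produces, and its values followed those of Elovl1. Probe set 1415840_at read 4294.4 in MMTV-PPARd on GW501516 and 3106.5 in MMTV-PPARd on chow, against 2578.2 in wild type on GW501516 and 2949.8 in wild type on chow. The array of MMTV-PPARd on GW501516 was highest, and the other 3 lay within a narrow range. The transgene went with a 1.67-fold higher intensity on GW501516 (1.51-fold by 1437211_x_at) and 1.05-fold higher on chow, where the second probe set was 1.08-fold lower. Over the 4 arrays the centred log2 values of Elovl5 and Elovl1 had a root mean square difference of 0.10, the smallest of all pairs of the 8 measured members. Elovl2, which elongates longer polyunsaturated chains and is known mainly from liver and testis, read 0.2, 0.8, 0.3 and 0.2 in the same order of arrays. All 4 values lay below the floor, so no fold is given.

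**Figure D1:**
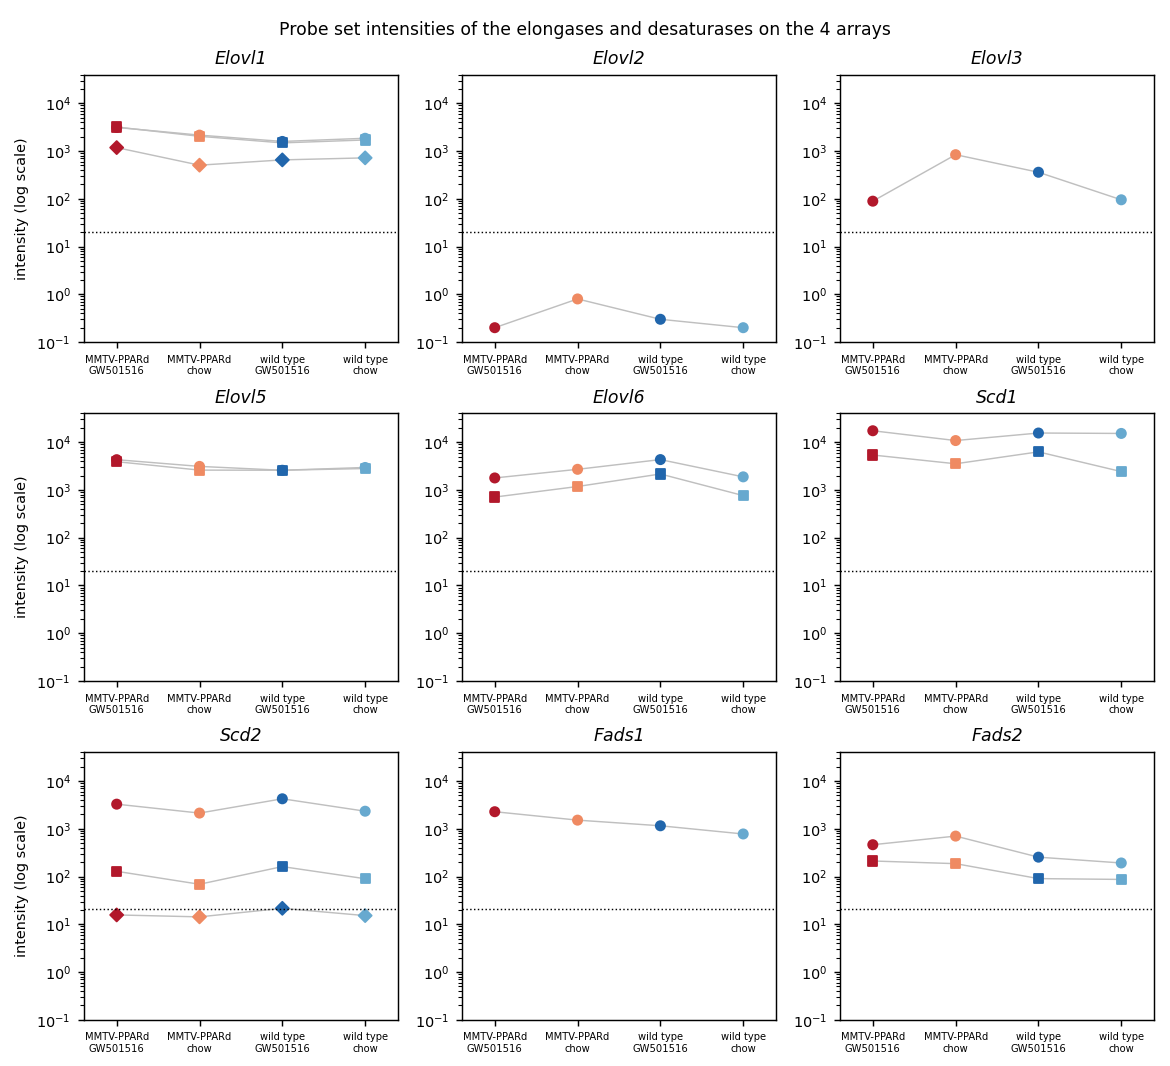
Intensity (log scale) of each probe set of the 9 genes on the 4 arrays, with 1 panel a gene, 1 symbol shape and grey line a probe set, and a dotted line at the floor of 20.5. Elovl3 and Elovl6 are high in MMTV-PPARd on chow and wild type on GW501516, Elovl1, Elovl5 and Fads1 are highest in MMTV-PPARd on GW501516, and Elovl2 lies below the floor throughout.

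Fads1, the desaturase that forms arachidonic acid, was higher with each factor by nearly the same ratio whether or not the other was present. Its probe set 1423680_at read 2276.7 in MMTV-PPARd on GW501516 and 1516.6 in MMTV-PPARd on chow, against 1155.3 in wild type on GW501516 and 778.6 in wild type on chow. GW501516 went with a 1.50-fold higher intensity in MMTV-PPARd mice and 1.48-fold in wild type. The transgene went with a 1.97-fold higher intensity on GW501516 and 1.95-fold on chow. With both factors Fads1 was 2.92-fold higher than in wild type on chow. The difference between the GW501516 effects of the 2 genotypes was 0.017 on the log2 scale.

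Fads2, which catalyses the first step from the essential fatty acids, was higher in MMTV-PPARd than in wild type on both diets by both probe sets. Probe set 1419031_at read 463.7 in MMTV-PPARd on GW501516 and 702.7 in MMTV-PPARd on chow, against 254.5 in wild type on GW501516 and 192.3 in wild type on chow. The second, 1449325_at, read 211.5 and 186.1 in MMTV-PPARd on GW501516 and on chow, against 90.5 and 87 in wild type on GW501516 and on chow. By both, each MMTV-PPARd array was above each wild-type array. The transgene went with a 1.82-fold higher intensity on GW501516 (2.34-fold by the second probe set) and 3.65-fold on chow (2.14-fold). The agonist's direction in MMTV-PPARd mice depended on the probe set, being 1.52-fold lower by the first and 1.14-fold higher by the second. In wild type it was 1.32-fold higher by the first and 1.04-fold by the second.

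Scd1, the main stearoyl-CoA desaturase of adipose tissue, was among the brightest signals on the arrays, and its 2 probe sets gave different pictures. Probe set 1415964_at read 17331.3 in MMTV-PPARd on GW501516 and 10799.2 in MMTV-PPARd on chow, against 15529.2 in wild type on GW501516 and 15223.7 in wild type on chow. No more than 52 of 22690 probe sets were brighter on any array. Probe set 1415965_at read 5377.2 and 3526 in MMTV-PPARd on GW501516 and on chow, against 6260.7 and 2418.7 in wild type on GW501516 and on chow. For GW501516 in wild type the first gave a 1.02-fold higher intensity and the second 2.59-fold. In MMTV-PPARd mice both gave a higher intensity with the agonist, by 1.60-fold and 1.53-fold. For the transgene they disagreed in direction on both diets, at 1.12-fold higher against 1.16-fold lower on GW501516 and 1.41-fold lower against 1.46-fold higher on chow, so no direction is given. How far the bright probe set was limited by the top of the intensity range was not tested. Quantile normalization, which gives all arrays the same range, made its log2 differences smaller. That for GW501516 in MMTV-PPARd mice went from 0.68 to 0.24, and that for the transgene on chow from -0.50 to -0.20.

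Scd2, a second stearoyl-CoA desaturase, was higher with GW501516 in both genotypes by both probe sets that passed the filter. Probe set 1415822_at read 3275.6 in MMTV-PPARd on GW501516 and 2132.1 in MMTV-PPARd on chow, against 4245.5 in wild type on GW501516 and 2331.9 in wild type on chow. Both arrays of GW501516 were above both arrays of chow. The agonist went with a 1.54-fold higher intensity in MMTV-PPARd mice and 1.82-fold in wild type (1.87-fold and 1.79-fold by 1415823_at). The transgene went with a 1.30-fold lower intensity on GW501516 and a 1.09-fold lower one on chow. The third probe set read 14.3 to 21.6 and was not used.

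Set out by comparison, GW501516 in MMTV-PPARd mice left Elovl3 as the single member at least 2-fold lower. The filter kept genes that reached 139, the median of all values, on at least 1 array. It left 8 of the 9 members, all but Elovl2, and 7836 genes in all. Of the 8 members, 0 were at least 2-fold higher and 1 was at least 2-fold lower, where 3.99% and 4.07% of all genes were. The median log2 difference of the 8 was 0.50, against -0.034 over all genes. In wild-type mice GW501516 went with 2 members at least 2-fold higher, Elovl3 and Elovl6, and 0 lower, where 3.18% and 3.25% of all genes were. The median was 0.49, against -0.037 over all genes. These 2 comparisons share no array. Fads1, Scd1 and Scd2 were above 0 in both (Scd1 by 0.029 in wild type), and Elovl1 and Elovl5 were at 0.54 and 0.47 in MMTV-PPARd mice and at -0.22 and -0.19 in wild type.

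The transgene on GW501516 went with 0 members at least 2-fold higher and 2 lower, Elovl3 and Elovl6, where 2.82% and 1.19% of all genes were. Fads1 and Elovl1, at log2 differences of 0.98 and 0.98, stood just under 2-fold higher. The median of the 8 was 0.45, against 0.0016 over all genes. It was 0.16 without probe sets ending in _x_at, _s_at or _a_at and 0.19 with the second brightest probe sets. Without the filter it was also 0.16, only because Elovl2, below the floor on all arrays, entered as a difference of 0. On chow 2 members were at least 2-fold higher, Elovl3 and Fads2, and 0 lower, where 5.46% and 3.71% of all genes were. The median was 0.37, against 0.020 over all genes, and it was 0.59 with the second brightest probe sets. Without the filter it was 0.22, again only because Elovl2 entered as 0. In MMTV-PPARd on GW501516 against wild type on chow, 2 members were at least 2-fold higher, Fads1 by 2.92-fold and Fads2 by 2.41-fold, and 0 lower, where 5.5% and 4.21% of all genes were. Elovl1 was 1.69-fold, Elovl5 1.46-fold and Scd2 1.40-fold higher there.

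**Figure D2:**
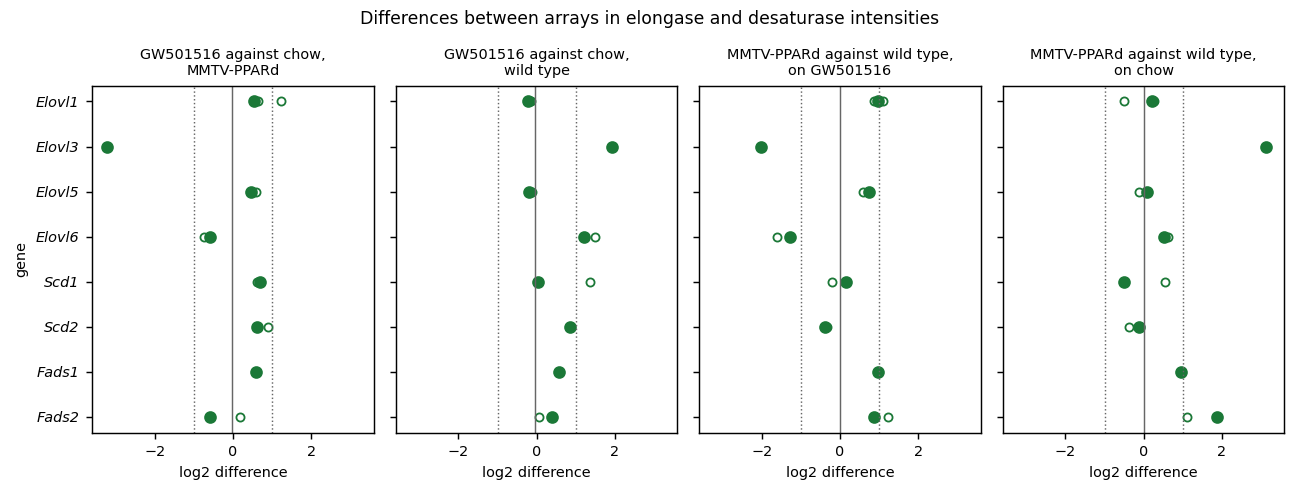
Log2 differences of the 8 members that passed the filter in 4 comparisons, with filled circles for the brightest probe set, open circles for the others that passed, dotted lines at 2-fold and a grey line at the median of all genes. Elovl3 and Elovl6 change side between genotypes and between diets, and Scd1 shows the widest gap between its probe sets for GW501516 in wild type.

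The difference between the GW501516 effects, MMTV-PPARd minus wild type, was at least 2-fold for 3 of the 8 members, all negative, where 5.25% of all genes lay at least that far below 0 and 4.43% above. It was -5.15 for Elovl3, -1.80 for Elovl6 (-2.24 by its second probe set) and -1.004 for Fads2. The Fads2 value was 0.13 by its second probe set. With the arrays shifted to a common median or quantile normalized, 2 members remained at 2-fold. Elovl1 (0.76), Elovl5 (0.66) and Scd1 (0.65) had positive values under 2-fold, and Scd1 gave -0.76 by its second probe set. Fads1 stood at 0.017 and Scd2 at -0.24. By the brightest probe sets Elovl3 thus lay farthest from 0 and Fads1 nearest to it.

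**Figure D3:**
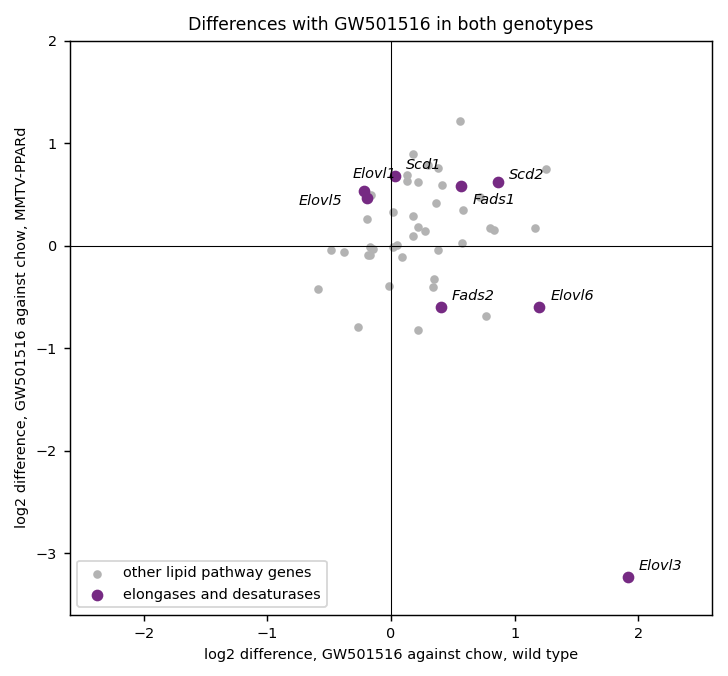
Log2 difference of GW501516 against chow in MMTV-PPARd mice (vertical) and in wild type (horizontal) for the 8 measured members (purple) and 40 other lipid pathway genes (grey). Each gene is drawn by its brightest probe set. Elovl3, at -3.23 and 1.92, lies far from all other points, and Elovl6 and Fads2 lie in the same quadrant. By its second probe set, not drawn, Fads2 was at 0.18 and 0.057, in another quadrant.

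Of the wider pathway, 40 genes from 7 lists passed the filter. With GW501516, 1 of the 40 was at least 2-fold higher and 0 lower in MMTV-PPARd mice, and 2 were higher and 0 lower in wild type. With the transgene, 3 were higher and 0 lower on GW501516, and 4 were higher and 1 lower on chow. Over all genes the shares higher and lower were 3.99% and 4.07%, 3.18% and 3.25%, 2.82% and 1.19%, and 5.46% and 3.71% in the same order, and the counts for GW501516 lie near them. Their median log2 differences were 0.15 and 0.20 for GW501516 in MMTV-PPARd and wild type, and -0.13 and -0.096 for the transgene on GW501516 and on chow. The members' medians in these 4 comparisons were 0.50, 0.49, 0.45 and 0.37, the 0.45 being the one that other choices lowered to 0.16, and the 2 sets of medians were not tested against each other.

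Among other elongases and desaturases, 3 of 6 on the array passed the filter. Elovl7, a further elongase, read 476.1 in MMTV-PPARd on GW501516 and 764.2 in MMTV-PPARd on chow, against 204.5 in wild type on GW501516 and 120 in wild type on chow. Both MMTV-PPARd arrays were above both wild-type arrays, by 2.33-fold on GW501516 and 6.37-fold on chow. The other enzymes of the elongation cycle and the electron donors (10 of 10 passed) had medians of 0.12 and 0.18 for GW501516 in MMTV-PPARd and wild type. Tecr, the reductase of the last step, read 1942.7 and 838.2 in MMTV-PPARd on GW501516 and on chow, against 2474 and 1682.1 in wild type on GW501516 and on chow. Its low value lay on the MMTV-PPARd chow array.

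Fatty acid synthesis and malonyl-CoA supply (6 of 7 passed) had medians of 0.26 and 0.47 for GW501516 in MMTV-PPARd and wild type, and of -0.38 and -0.26 for the transgene on GW501516 and on chow. Acss2, which makes acetyl-CoA from acetate, was the single gene of that list past 2-fold, 2.25-fold higher with GW501516 in wild type and 1.13-fold in MMTV-PPARd mice. None of 12 regulators of lipogenesis reached 2-fold in these 4 comparisons. Srebf1 read 6663.6 in MMTV-PPARd on GW501516 and 4118.4 in MMTV-PPARd on chow, against 3649.8 in wild type on GW501516 and 3336.6 in wild type on chow, the order of arrays that Fads1 had. Elovl6 had another order and was lowest, at 1779.6, on the array where Srebf1 was highest. With GW501516 in wild type Srebf1 was 1.09-fold higher and Elovl6 2.30-fold. Mlxipl, which encodes ChREBP, a glucose-sensing activator of lipogenesis, was 1.56-fold lower with the transgene on GW501516 and 1.77-fold lower on chow.

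Acsl4, an acyl-CoA synthetase that prefers arachidonic acid, also had the order of Fads1. It read 1802.8 in MMTV-PPARd on GW501516 and 1066.4 in MMTV-PPARd on chow, against 687.5 in wild type on GW501516 and 529 in wild type on chow. Of 4 synthetases on the array, 2 passed the filter. In peroxisomal chain shortening (5 of 5 passed), Acaa1b, a thiolase, was 3.26-fold higher with the transgene on GW501516 and 4.63-fold on chow, and 2.38-fold higher with GW501516 in wild type. Ehhadh, a bifunctional enzyme of the same route, was 1.98-fold higher with the transgene on GW501516 and 2.04-fold on chow. Neither of the 2 ceramide synthases that passed, Cers2 and Cers5, reached 2-fold. Cers2, which uses the chains that Elovl1 makes, was 1.04-fold lower with the transgene on GW501516 and 1.42-fold lower on chow.

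Genes outside the 9 were ranked by how closely their centred log2 values over the 4 arrays followed a member, among 7738 genes above the floor on all arrays. For Elovl6 the closest were Mogat2, a monoacylglycerol acyltransferase, at a root mean square difference of 0.060, Lratd1 (0.064) and Gbe1, the glycogen branching enzyme (0.13). For Fads1 they were Bin1 (0.036), Tfap2b (0.072) and Tmc4 (0.094). For Fads2 by its brighter probe set they were Mia (0.062), Sqle, squalene epoxidase of sterol synthesis (0.075), and Fam241b (0.090). Elovl3 had no close partner. Its nearest genes were Enpp4, Wnt5b and Alox12e at 0.62 to 0.65. Over 4 arrays and 7738 genes, close matches can be met without any relation, and these are a description.

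Markers of several cell types differed between the same arrays, and their part in the members' values was not tested. Sums are of the deposited intensities of all list genes on the array, without floor or filter. White adipocyte markers, 10 of 10 above the filter and none below the floor, had summed intensities of 71572 in MMTV-PPARd on GW501516 and 52218 in MMTV-PPARd on chow, against 76568 in wild type on GW501516 and 71763 in wild type on chow. None of the 10 reached 2-fold in any of the 4 comparisons. With the transgene on chow 9 of them were below 0. Fabp4, the brightest, read 14185.6 on the MMTV-PPARd chow array, close to the highest intensity there, 14308.6. The part of that lower top in the sum was not tested. Brown adipocyte markers (6 of 6 above the filter) summed to 19579 and 18312 in MMTV-PPARd on GW501516 and on chow, against 20764 and 18609 in wild type on GW501516 and on chow. Ucp1, the uncoupling protein that defines brown fat, read 2264.2 in MMTV-PPARd on GW501516 and 4657.8 in MMTV-PPARd on chow, against 5045.5 in wild type on GW501516 and 3316 in wild type on chow, which is the order of arrays of Elovl6. Cidea, another brown fat gene, had its highest value, 9453.5, in MMTV-PPARd on GW501516, and Cox8b read 5485.8 to 6911. Dio2, which activates thyroid hormone, read 116.4 in MMTV-PPARd on GW501516 and 214.3 in MMTV-PPARd on chow, against 144.1 in wild type on GW501516 and 152.4 in wild type on chow. Cox7a1 read 2051.9 to 3012.1 and had the order of arrays of Elovl6. Ppargc1a read 207 and 130.9 in MMTV-PPARd on GW501516 and on chow, against 341.6 and 165.4 in wild type. Ppargc1a was thus higher with GW501516 in both genotypes. For the difference between GW501516 effects, 5 of the 6 brown markers were below 0, as Elovl3 and Elovl6 were, with a median of -0.48. Of these, Cox8b (-0.15) and Ppargc1a (-0.39) lay within the SD of 0.54 between probe sets. Cidea was the one above 0, and 50.5% of all genes were above 0. This sign was not particular to brown markers. Skeletal muscle markers had 12 of 12 below 0 (median -1.65) and myoepithelial markers 6 of 7 (median -0.43). Most white adipocyte, T cell and B cell markers were above 0. Of 8 sebaceous gland and skin markers on the array, 2 passed the filter, and Krt79 was highest in MMTV-PPARd on GW501516, at 457.7, where Elovl3 was lowest. Krt10 read 228.7 to 339.7 and Lor 19 to 59.8, and Krt1, Krt25 and Krt27 lay below the floor on all arrays.

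The summed epithelial lists were higher in MMTV-PPARd than in wild type on both diets, as Fads1 and Fads2 were, but not every marker was. Luminal markers (11 of 14 above the filter) summed to 37216 and 32079 in MMTV-PPARd on GW501516 and on chow, against 25694 and 22921 in wild type on GW501516 and on chow. With the transgene 8 of the 11 were above 0 on GW501516 and 8 on chow, where 50.2% and 51.8% of all genes were. Among the brightest of them, Krt8 read 5613 to 8265.9 and Krt19 3595.3 to 5611.9. Both were higher in MMTV-PPARd on GW501516 but lower on chow. On chow Krt8 read 5932.5 in MMTV-PPARd against 6056.8 in wild type, and Krt19 3595.3 against 4450.4. Milk protein genes (9 of 9) summed to 103947 in MMTV-PPARd on GW501516 and 52715 in MMTV-PPARd on chow. In wild type they summed to 44922 on GW501516 and 26198 on chow. This is the order of Fads1, but the place of MMTV-PPARd on chow above wild type on GW501516 rested on Glycam1. It read 8128.4 in the former and 2.2, below the floor, in the latter. Csn2, Csn3 and Lalba were higher in wild type on GW501516 than in MMTV-PPARd on chow, and Wap, Csn1s1, Csn1s2a, Csn1s2b and Olah were lower. With the transgene 9 of the 9 were above 0 on GW501516 and 6 on chow. Csn1s1, Csn1s2a and Csn3 were the brightest of them. Myoepithelial markers (7 of 8) summed to 12630 and 13551 in MMTV-PPARd on GW501516 and on chow, against 10066 and 8933 in wild type. With the transgene 4 of the 7 were above 0 on GW501516 (median 0.082) and 6 on chow. Krt14, a basal keratin, carried most of the gap in the sum on GW501516. It read 2818.1 and 3651.7 in MMTV-PPARd on GW501516 and on chow, against 334.9 and 323.2 in wild type, while Acta2 and Myh11 stayed within 2-fold in the 4 comparisons. Skeletal muscle markers (12 of 12) summed to 120566 and 35330 in MMTV-PPARd on GW501516 and on chow, against 123776 and 14731 in wild type, so the arrays of GW501516 on which Scd2 was higher were also those with more muscle transcript. Acta1, Ckm and Mylpf led that list. T cell markers (7 of 8) summed to 143 and 1395 in MMTV-PPARd on GW501516 and on chow, against 174 and 4510 in wild type. B cell markers (4 of 7) summed to 132 and 1335, against 196 and 2611 in wild type. Many values in these sums lay below the floor. On GW501516, 6 of the 8 T cell genes did so in MMTV-PPARd mice and 4 in wild type. Of the 7 B cell genes, 5 and 4 did.

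**Figure D4:**
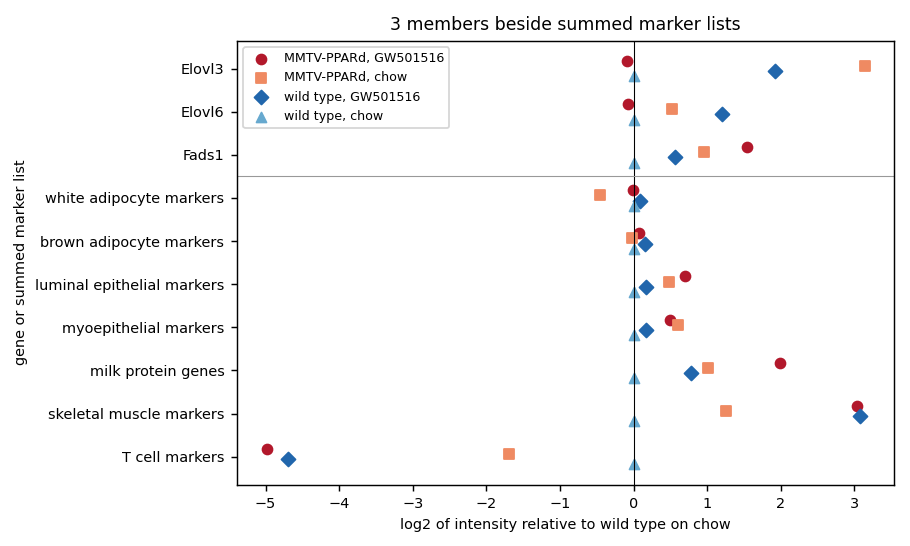
Intensity of Elovl3, Elovl6 and Fads1 and summed intensities of 7 marker lists on each array, as log2 relative to wild type on chow (vertical line at 0). Elovl3 reaches 3.14 in the MMTV-PPARd chow group and 1.92 in wild type with GW501516. The brown adipocyte sum, which Cidea lifts in MMTV-PPARd on GW501516, lies between -0.023 and 0.16. Fads1 and the milk protein sum have the same order of arrays, which for the sum rests on Glycam1.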

How the data were processed

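Mammary gland RNA of 4 groups, pooled from 5 mice each, was measured on 1 Affymetrix array a group. Per the labels' protocols, biotin-labelled cRNA was prepared by the Affymetrix protocol. The deposited values were linear probe set intensities. Their mean without the lowest and highest 2% was 500.17 to 500.2 on each array. For scanner software, summarisation and build the sources used here gave nothing. Python 3.11.15 with pandas 2.3.3 was used.

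Probe sets were named through the platform's table, with symbols updated by gene ID. Of 22690, 20393 had 1 symbol, 691 had several and 1606 were unlisted. The brightest probe set on average stood for a gene. Values were floored at 20.5 before log2, and genes reaching 139 on at least 1 array were kept. A difference was counted from 2-fold. With 1 array a group, no p-value or error was computed, and the number of arrays limits the precision. The computation was run on simulated data with large changes and a scatter smaller than the SD between probe sets. This checks the code and not how reliable a 2-fold difference is here.

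Members and gene lists were chosen with earlier results of these data known. Named were all members, Ppard and the 3 brightest markers of a list. Pathway genes at 2-fold in a comparison of 1 factor (otherwise the 2 with the largest difference) were named too. So were the 3 genes closest to each member that spanned 2-fold on its brightest probe set. Gapdh, BioB, Dio2, Cox7a1, Ppargc1a and the skin keratins below the floor were added after values were seen. The alternatives were other scaling, floor, filter and probe set choices. The second brightest probe set was added after seeing the data.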

Additional observations from a re-analysis of the deposited data

Results flagged for a closer look

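GW501516 and chow differed in opposite directions in the 2 genotypes for 5 of the 8 measured members, each on 1 array a group, and the difference was not tested. Over all 7836 genes 43.1% had opposite signs. As MMTV-PPARd minus wild type on the log2 scale it was -5.15 for Elovl3 (-3.23 in MMTV-PPARd and 1.92 in wild type), -1.80 for Elovl6 (-0.60 and 1.20), -1.004 for Fads2 (-0.60 and 0.40), 0.76 for Elovl1 (0.54 and -0.22) and 0.66 for Elovl5 (0.47 and -0.19). The transgene differed in direction between the diets for Elovl3 (-2.01 on GW501516 and 3.14 on chow, a difference of -5.15), Elovl6 (-1.28 and 0.52, a difference of -1.80) and Scd1 (0.16 and -0.50, a difference of 0.65), which was not tested either. That is 3 of 8 members, where 41.8% of all genes had opposite signs. These are the same 4 arrays read a second way. The Fads2 and Scd1 values have the other sign by the second probe set of each gene, at 0.13 and -0.76. Probe sets of 1 gene differed with an SD of 0.54 in this measure.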

How the results depend on the processing

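No paired analysis was possible because each group was 1 array. The counts of members at least 2-fold different in the 6 comparisons, and their medians, were recomputed under 8 other processing choices and 1 added after seeing the data. Of these 108 values, 107 stayed within 1.5 times the count or within the SD between probe sets. That SD was 0.35 to 0.54 and so close in size to most of the medians. Counts of 2 and 3 lie within 1.5 times of each other, so changes between them were not flagged. The count of 3 for the difference between GW501516 effects fell to 2 with either change of scaling. It also fell to 2 with the mean over probe sets or the second brightest ones. The count of 2 for the transgene on GW501516 rose to 3 with the mean over probe sets. With the second brightest probe sets 2 became 3 for GW501516 in wild type and for both factors against neither. The 8 measured members read 89.2 or higher on every array, above each floor tried, and all passed the filter at the 60th percentile. Those choices could not change any of the values, so their share of the 107 is no check. Among the medians within that SD, the 0.45 for the transgene on GW501516 went to 0.16 without probe sets ending in _x_at, _s_at or _a_at. The 0.37 for the transgene on chow went to 0.59 with the second brightest probe sets. Without the filter these medians were 0.16 and 0.22, only because Elovl2, below the floor on all arrays, entered as a difference of 0. With the second brightest probe set, the transgene on GW501516 had 4 members at 2-fold in place of 2, with Elovl1 and Fads2 joining on the higher side. For single members, 411 of 426 recomputed differences moved by less than that SD, and the choices of floor and filter could not move any of them. The Fads2 difference between GW501516 effects reversed to 0.13 with its second probe set. The other 14 that moved were all of Scd1 or Fads2 under another choice of probe set. Without probe sets ending in _x_at, _s_at or _a_at, Elovl1, read by _x_at and _a_at probe sets alone, had no value. Elovl3 has 1 probe set, was above each floor tried and passed each filter, so only the changes of scaling could move it. Under those it stayed 2-fold or more in each comparison of 1 factor.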
